A study of Mus musculus with 12 samples.

Results

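This account covers the effect of a high-fat diet on the mouse liver transcriptome averaged over mice labelled wild-type and mice labelled Cyp1b1 null, and it used all 12 of the 12 arrays in the series, 6 for each diet. For each gene the high-fat minus low-fat difference was taken within each genotype, and the mean of both differences was tested, so that a difference between genotypes cancels. The livers came from male mice weaned at 3 weeks onto a diet with 10% fat or with 60% fat and killed at 14 weeks. The 4 groups held 3 arrays each: C57BL6/J wild-type on low fat, wild-type on high fat, Cyp1b1 null on low fat and Cyp1b1 null on high fat. The product of Cyp1b1 is a P450 enzyme known for its action on oestrogens, retinoids and polycyclic aromatic compounds. Sample RNA, labelled with Cy3, was hybridised against RNA pooled from wild-type livers on low fat, labelled with Cy5 on every array, without a dye swap. Each sample is described as a pool of 3, and nothing says whether the 3 arrays of a group came from separate pools, so the spread that the p-values rest on is that among these arrays and may be technical. Levels are given below as log2 of sample over reference, and differences as log2 high fat minus low fat, mean of both genotypes unless a genotype is named.

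The liver makes fatty acids from sugar when dietary fat is scarce and insulin is high. Acetyl-CoA carboxylase and fatty acid synthase build the chain, malic enzyme and the pentose phosphate pathway supply the NADPH, and stearoyl-CoA desaturase introduces the first double bond. The genes of this pathway are driven by SREBP-1c and ChREBP and are known to be repressed by dietary polyunsaturated fat. Fatty acids that reach the liver in excess are oxidised in mitochondria and peroxisomes, and they activate the nuclear receptor PPARalpha, which induces many of the oxidation genes.

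The 5 probes past the threshold are the core of the result, and 1 of them carries no gene name in the annotation used. Its gene was not looked up elsewhere, so the probe is shown by its sequence. Its 60 bases, from the array's annotation, are given first, followed by the stretch of 28 bases that the Cyp2a5 probe shares with a probe for the neighbouring family member Cyp2a4, because a probe pair that shares sequence may cross-hybridise.
A_52_P517668: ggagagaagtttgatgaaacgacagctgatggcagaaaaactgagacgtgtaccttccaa
Cyp2a5 and Cyp2a4 shared run: gtagacttgcagaggatatttcaaaggt

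The promoters of Cyp2a5 and Cyp2a4 are shown because both genes had positive differences on these arrays. The windows run from 250 bases before to 50 bases after the start site, from RefSeq on GRCm38.p6. The Cyp2a5 window lies at chr7:26835089-26835388 and the Cyp2a4 window at chr7:26306942-26307241, both on the plus strand. Laid over each other with an offset of 1 base, they were the same at 294 of 299 bases (98.3%), and capitals mark the 5 that differ.
Cyp2a5: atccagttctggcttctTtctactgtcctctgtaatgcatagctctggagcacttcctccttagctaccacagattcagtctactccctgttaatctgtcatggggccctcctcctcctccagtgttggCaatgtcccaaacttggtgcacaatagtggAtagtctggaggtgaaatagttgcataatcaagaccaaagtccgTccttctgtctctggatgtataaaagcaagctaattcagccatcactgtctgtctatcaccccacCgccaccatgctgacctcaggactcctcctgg
Cyp2a4: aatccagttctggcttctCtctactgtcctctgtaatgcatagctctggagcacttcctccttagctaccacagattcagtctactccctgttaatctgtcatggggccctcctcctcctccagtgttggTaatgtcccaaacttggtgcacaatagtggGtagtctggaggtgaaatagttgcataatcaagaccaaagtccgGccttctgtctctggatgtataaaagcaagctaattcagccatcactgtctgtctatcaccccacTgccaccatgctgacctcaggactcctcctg

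Among the genes of fatty acid synthesis, the promoters of Acacb and Fasn show the CCAAT box, the site of NF-Y, which is known to act together with SREBP on lipogenic promoters. The Acacb window is chr5:114165268-114165567 on the plus strand and the Fasn window is chr11:120824498-120824797 on the minus strand, both on GRCm38.p6 from RefSeq. Capitals mark CCAAT on either strand (ATTGG on the other), and sites may overlap.
Acacb: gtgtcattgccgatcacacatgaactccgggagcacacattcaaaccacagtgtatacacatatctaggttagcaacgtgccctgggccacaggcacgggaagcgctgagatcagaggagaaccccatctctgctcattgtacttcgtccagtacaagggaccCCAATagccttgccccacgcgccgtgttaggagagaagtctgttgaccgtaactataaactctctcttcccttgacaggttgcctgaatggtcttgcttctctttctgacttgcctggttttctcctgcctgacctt
Fasn: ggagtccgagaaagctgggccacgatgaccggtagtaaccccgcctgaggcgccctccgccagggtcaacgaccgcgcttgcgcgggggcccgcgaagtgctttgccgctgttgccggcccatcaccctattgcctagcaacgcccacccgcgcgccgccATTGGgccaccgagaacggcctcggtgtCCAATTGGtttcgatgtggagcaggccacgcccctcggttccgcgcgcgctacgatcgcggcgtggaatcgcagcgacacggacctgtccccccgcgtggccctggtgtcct

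Of the 22 measured genes of fatty acid synthesis, 19 matched the promoter table by symbol, and Scd1, Scd2 and Fads1 did not. A gene can have several start sites, and these 19 had 26 windows. CCAAT was present in 14 of the 26 windows (53.8%), against 37.4% of the 32851 windows of the same length in the table. The share was 58.3% of 24 windows for PPARalpha targets, 44.4% of 27 for fatty acid oxidation and 75.0% of 20 for clock genes, so it was not highest in fatty acid synthesis. The E-box CACGTG stood in 3 of the 26 windows (11.5%) and in 5 of the 20 of clock genes (25.0%), against 7.15% of all windows. The sterol response element, searched as TCACNCCAC on both strands, stood in 1 of the 26 (3.85%), against 1.24% of all windows. These shares describe the letters in the windows.

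Before the results, the arrays themselves need description. Between 17286 and 25998 probes stood well above background in a channel, and 14911 genes were tested. The arrays were read in 3 scans on 4 slides, and within each genotype both diets are spread evenly over the scans. A fit with scan as a block therefore gives the same differences with other errors. Deviations from the group means went with the scan: the median correlation between arrays of different groups was 0.38 for 20 pairs in 1 scan and -0.18 for 34 pairs in different scans. Of the 15 fixed hepatocyte markers 13 were measured, all 13 well above background on all 12 arrays, among them Alb, Ttr and Apoa1. The label calls the tissue liver hepatocytes, but 22 of the 23 measured macrophage markers, all 20 endothelial markers and 20 of the 23 stellate and matrix markers also stood well above background on all 12 arrays. So did 3 of the 5 measured exocrine pancreas markers and 4 of the 7 muscle or mesothelium markers. A measured marker had already stood well above background in all 3 arrays of a group. These counts therefore do not show which cell types the samples held, and fewer cells of a type and less RNA per cell cannot be told apart. Wild-type low-fat array 1 stood apart from the others of its group, with a median stellate level of 0.58 against -0.69 and -0.92 and a median pericentral level of -0.83 against 0.83 and 0.57. For macrophage markers array 2 of that group was the farthest, at -1.53 against 0.16 on array 1 and -0.33 on array 3.

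The targeted gene was read first. In wild-type livers the Cyp1b1 probe gave 0.15, -0.85 and -1.11 with low fat and -0.69, -0.13 and -0.88 with high fat. On the arrays labelled null it gave 1.68, 1.58 and 1.59 on low fat and 0.65, 1.68 and 1.23 on high fat. Every array labelled null was above every wild-type array, the opposite of what loss of the transcript would give. The sources used here do not say where this probe lies relative to the deleted segment, so it does not check the labels, and these arrays are called labelled null throughout. The diet difference of Cyp1b1 was -0.20 (SE 0.24; limma, Benjamini-Hochberg adjusted p = 0.999).

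The mean diet effect was narrow at the threshold. Of 14911 genes, 5 passed an adjusted p under 0.05 (0.0335%; limma with Benjamini-Hochberg adjustment), 2 higher (0.0134%) and 3 lower (0.0201%) on high fat. Before adjustment 722 genes (4.84%) had p under 0.05, 376 higher (2.52%) and 346 lower (2.32%), which is close to the share that a 0.05 threshold passes when nothing differs. With scan as a block, the same 5 genes passed (0.0335%), and 1383 genes (9.28%) had p under 0.05 before adjustment, 750 higher (5.03%) and 633 lower (4.25%). Over all genes the median difference was 0.01 and the SD 0.23, while 36 genes stood more than 1 higher and 45 more than 1 lower. By sign alone 7729 genes were higher and 7182 lower, which is the background for the counts of list members below.

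Scd1, the stearoyl-CoA desaturase that makes oleate and palmitoleate, fell the furthest of all 14911 genes. Its levels were -0.80, 0.39 and -0.93 on wild-type low fat and -1.51, -2.20 and -2.41 on wild-type high fat. On the arrays labelled null they were -0.28, 0.74 and 0.31 on low fat and -5.82, -4.06 and -4.79 on high fat. All 6 high-fat arrays lay below all 6 low-fat arrays, with those labelled null the lowest. The mean difference was -3.37 (SE 0.34; adjusted p = 0.00978 by limma, and 0.0215 with scan as a block), a 10.3-fold lower level. It was -1.59 in wild-type livers and -5.15 in livers labelled null, and the test of that gap gave -3.55 (SE 0.67; limma, adjusted p = 1.00 over all genes), so the gap did not pass. The call was kept without each of the 12 arrays in turn.

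Cd9, a tetraspanin of the plasma membrane found on macrophages, bile duct cells and several other cell types, also fell. Its levels were -0.09, -0.85 and -0.83 on wild-type low fat and -2.53, -2.42 and -2.31 on wild-type high fat. On the arrays labelled null they were -1.29, -1.41 and -1.57 on low fat and -2.09, -2.31 and -2.42 on high fat. The diets did not overlap in either genotype, and the high-fat arrays of both genotypes together ran from -2.53 to -2.09. The mean difference was -1.34 (SE 0.15; adjusted p = 0.00979 by limma, and 0.0218 with scan as a block), a 2.53-fold lower level, and the adjusted p was 0.0511 without high-fat array 3 of those labelled null, in a range of 0.000691 to 1.00 over all alternatives. A second Cd9 probe was not well above background on any array.

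Markers of macrophages, among which Cd9 was listed, stood beside it as follows. Of 23 measured macrophage markers, 19 had a lower and 4 a higher mean on high fat, 1 passed (Cd9), and their median difference was -0.18, against 0.01 for all genes. The genotypes differed in this count: 1 of the 23 was higher in wild-type livers and 13 of 23 in livers labelled null, 9 were lower in both, and the median was -0.49 and 0.07, respectively. The range of their median level over arrays was -1.53 to 0.16 on low fat and -1.63 to -0.42 on high fat. Clec4f and Csf1r, which mark Kupffer cells and macrophages, differed by -0.15 each. With wild-type low-fat array 1 left out, 14 of the 23 were lower and the median was -0.07. The median also moved by over 1.5 times on leaving out wild-type high-fat array 1 (-0.07) or 3 (-0.28), array 2 of wild-type low fat (-0.41), and array 1 of high fat labelled null (-0.29). The part of macrophage content in the Cd9 result was not tested.

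Probe A_52_P517668, with the sequence shown above, fell by more than Cd9. Its levels were -0.93, 0.82 and -0.28 on wild-type low fat and -2.93, -2.54 and -3.35 on wild-type high fat. On the arrays labelled null they were 1.25, 1.01 and 2.13 on low fat and -0.85, -0.85 and -1.20 on high fat. The diets did not overlap within either genotype, and the arrays labelled null were higher than the wild-type arrays on the same diet. The mean difference was -2.62 (SE 0.29; adjusted p = 0.00979 by limma, and 0.0218 with scan as a block), a 6.14-fold lower level, and the adjusted p was 0.0511 without high-fat array 3 of those labelled null, in a range of 0.00142 to 1.00 over all alternatives. The difference was -2.81 in wild-type livers and -2.43 in livers labelled null.

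Decr2, the peroxisomal 2,4-dienoyl-CoA reductase needed to oxidise polyunsaturated fatty acids, rose. Its levels were -0.36, -0.09 and -0.18 on wild-type low fat and 0.47, 0.63 and 0.38 on wild-type high fat. On the arrays labelled null they were -0.24, -0.42 and -0.20 on low fat and 0.39, 0.59 and 0.58 on high fat. Every high-fat array was above 0 and every low-fat array below it, whatever the genotype. The mean difference was 0.75 (SE 0.10; adjusted p = 0.0393 by limma, and 0.0333 with scan as a block), a 1.69-fold higher level. It was 0.70 in wild-type livers and 0.80 in livers labelled null. The call was lost without any 1 array except wild-type low-fat array 3, with differences of 0.72 to 0.79.

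Cyp2a5, a cytochrome P450 that hydroxylates coumarin and nicotine and is induced through the receptor CAR, rose as well. Its levels were -0.14, -0.63 and 0.17 on wild-type low fat and 0.38, 1.38 and 0.85 on wild-type high fat. On the arrays labelled null they were -2.19, -2.55 and -2.62 on low fat and -0.71, -0.64 and -0.94 on high fat. The diets were apart within each genotype, although the high-fat arrays labelled null were still below the wild-type low-fat arrays. The mean difference was 1.38 (SE 0.19; adjusted p = 0.0393 by limma, and 0.0416 with scan as a block), a 2.60-fold higher level. The call held on leaving out array 3 of wild-type low fat or array 1 of wild-type high fat and was lost for each of the other 10, with differences of 1.25 or more. The Cyp2a4 probe that shares the run of 28 bases differed by 1.14, the brightest Cyp2a4 probe by 1.42 (SE 0.30; adjusted p = 0.260 by limma) and the last by 1.29, so these values cannot be assigned to a single gene with certainty.

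**Figure D1:**
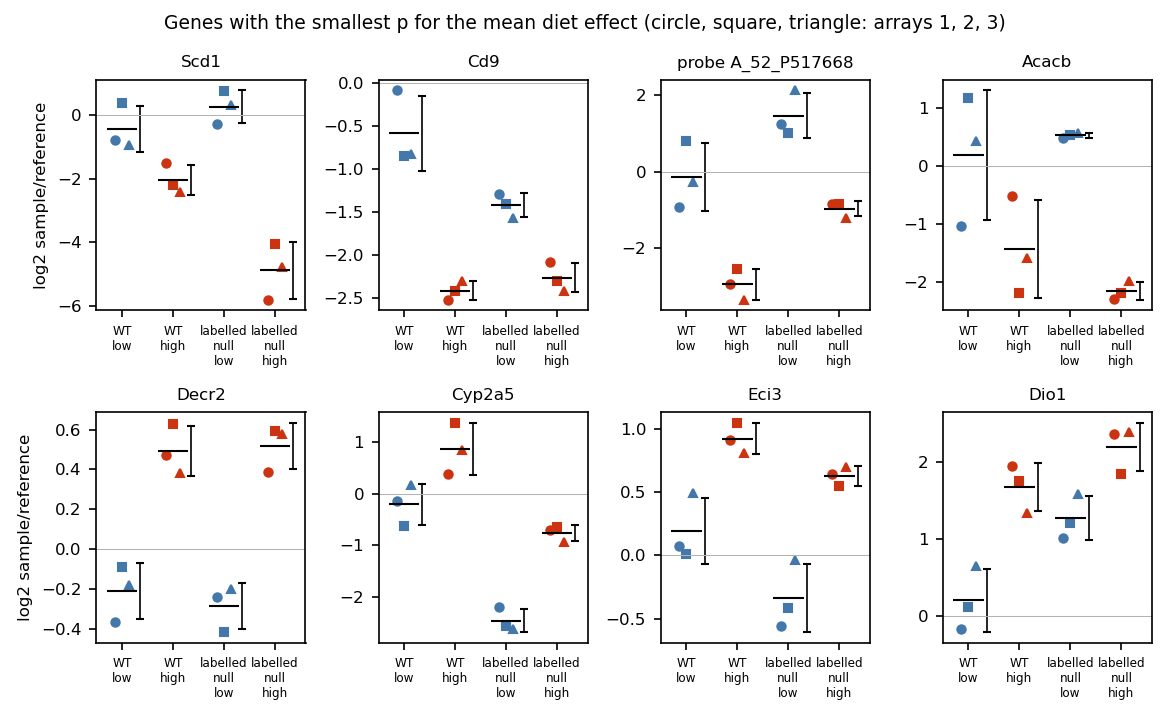
Log2 sample over reference for 8 of the genes with the smallest p, 1 point per array; the horizontal line is the mean of 3 arrays and the bar its SD. Scd1, Cd9 and probe A_52_P517668 are lower on high fat (red) in both genotypes, Decr2, Cyp2a5, Eci3 and Dio1 are higher, and in Acacb the high-fat arrays overlap the low-fat arrays only in wild-type livers.

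On 3 slides that held both diets of a genotype, the differences can be read without crossing slides. Decr2 was higher on high fat by 0.84, 0.72 and 0.56 in the wild-type pairs and by 0.83 in the pair labelled null. For Scd1 the 4 differences were -0.71, -2.59, -1.48 and -3.78, and for Cd9 they were -2.44, -1.57, -1.48 and -1.01. Cyp2a5 gave 0.53, 2.00, 0.68 and 1.55, and probe A_52_P517668 gave -2.00, -3.36, -3.07 and -2.10. All 5 kept their sign in all 4 pairs. For each of the 5 the diets did not overlap within either genotype, so these signs were fixed in advance and add no evidence. With slide as a block, an alternative chosen after seeing the data, 0 genes passed the adjusted threshold and 941 had p under 0.05 before adjustment.

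The genes with the next smallest p did not pass the threshold and are given as values. Higher on high fat were Eci3 at 0.85 (SE 0.13; adjusted p = 0.0672 by limma), a peroxisomal enoyl-CoA isomerase, and Dio1 at 1.21 (SE 0.18; adjusted p = 0.0672), the deiodinase that activates thyroid hormone. Tdo2, the first enzyme of tryptophan breakdown, stood at 1.07, Dbp, a clock-controlled transcription factor, at 1.69, Setd4, a methyltransferase, at 0.85 and Herpud1, which serves degradation of misfolded proteins at the endoplasmic reticulum, at 1.41. In all of these but Herpud1 the arrays of the diets were apart in both genotypes. A second Tdo2 probe gave 0.55.

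Lower on high fat with the next smallest p was Gas6 at -1.02 (SE 0.15; adjusted p = 0.0658 by limma), the ligand of the receptors Tyro3, Axl and Mertk. Acacb, the acetyl-CoA carboxylase at the mitochondrion, stood at -2.15 (SE 0.35; adjusted p = 0.121), and Me1, malic enzyme, at -2.18 (SE 0.40; adjusted p = 0.178). Gramd4 stood at -0.92, Slc16a6, a monocarboxylate transporter known to export ketone bodies, at -0.87, and St6gal1, a sialyltransferase, at -0.79. The second measured probes of Slc16a6 and St6gal1 gave -0.13 and 0.06, so those differences rest on 1 probe each, while the second Me1 probe gave -2.10. Me1 differed by -0.97 in wild-type livers, where the diets overlapped, and by -3.38 in livers labelled null, a gap that did not pass.

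**Figure D2:**
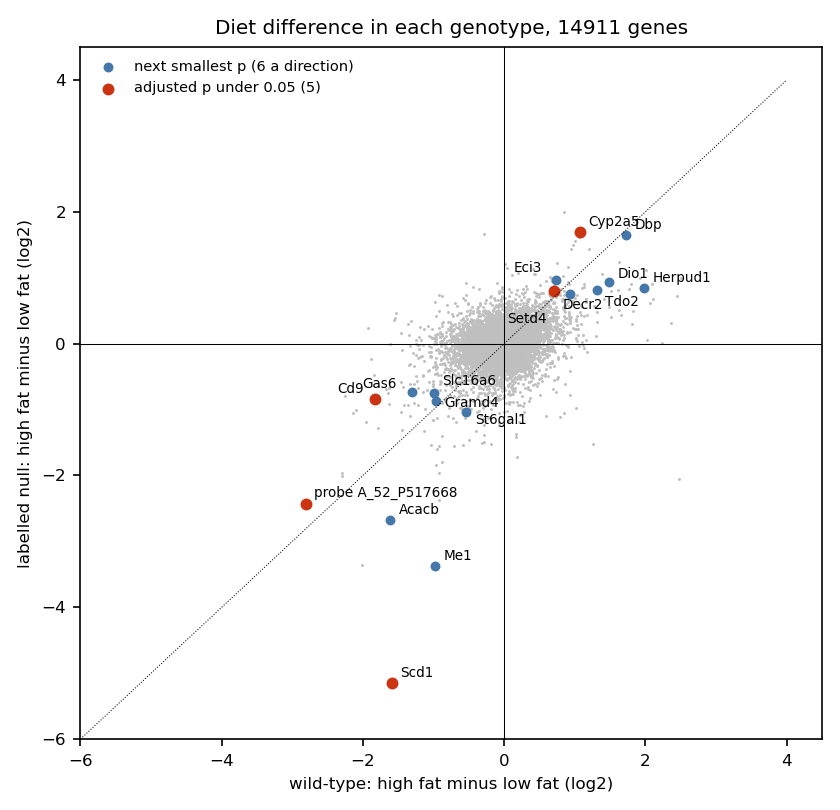
High-fat minus low-fat difference (log2) in wild-type livers (x axis) and in livers labelled null (y axis) for 14911 genes (grey), with the 5 genes past the threshold in red and the 6 next in each direction in blue; the dotted line marks equal differences. Scd1 lies at -1.59 and -5.15, far below the line, and Decr2 at 0.70 and 0.80, close to it.

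Both genotypes were compared over arrays that share no sample. Across the 14911 genes, which are not independent replicates, the differences in wild-type livers and in livers labelled null had Pearson's r of 0.356 and Spearman's rho of 0.277, and 8800 genes (59.0%) had the same sign. These arrays shared slides and scans between the genotypes. The arrays of both diets were apart in both genotypes for 80 genes that were higher (0.537%) and 64 that were lower on high fat (0.429%). In wild-type livers alone 1 gene passed (0.00671%) and in livers labelled null 1 gene (0.00671%), Cd9 and Scd1 respectively. With scan as a block the wild-type count was 0 (1170 at p under 0.05 before adjustment by limma), and the count in livers labelled null was 1. Leaving out single arrays gave 0 to 1 for each genotype. The interaction was called for 0 genes by limma, with 134 (0.899%) at p under 0.05 before adjustment. Its smallest p belonged to Scd1 and then to Comtd1, for which the difference labelled null minus wild-type was 1.09 (SE 0.28; adjusted p = 1.00).

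Fatty acid synthesis and desaturation was the list with the lowest median. Of its 22 measured genes 18 were lower and 4 higher on high fat, 10 of 22 were lower at p under 0.05 before adjustment against 2.32% of all genes, and 0 were higher. The median difference was -0.67, against 0.01 for all genes, and it was -0.52 in wild-type livers and -0.82 in livers labelled null. Leaving out single arrays gave medians of -0.80 to -0.57. In the arrays labelled null every high-fat median (-0.26, -0.94 and -0.42) was below every low-fat median (-0.21, 0.86 and 0.35), while in wild-type livers the high-fat medians of 0.31, -0.69 and -0.79 overlapped the low-fat ones of -0.0047, 0.56 and -0.24.

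Scd1 is the member that passed. Acacb read -1.02, 1.17 and 0.43 on wild-type low fat and -0.52, -2.18 and -1.57 on high fat, and on the arrays labelled null 0.49, 0.54 and 0.56 on low fat and -2.28, -2.18 and -1.98 on high fat. In livers labelled null the diets were more than 2 units apart, while in wild-type livers low-fat array 1 lay below high-fat array 1. The following members were chosen after their values were seen. Fasn, fatty acid synthase, differed by -1.65 (SE 0.37; adjusted p = 0.282) and its second probe by -1.17. By genotype Fasn differed by -0.92 in wild-type livers, where the diets overlapped, and by -2.38 in livers labelled null, a gap that did not pass. Elovl6, which elongates palmitate, differed by -1.28 (SE 0.33; adjusted p = 0.407), G6pdx, the first enzyme of the pentose phosphate pathway, by -1.18 (SE 0.25; adjusted p = 0.261), and Acaca, the cytosolic acetyl-CoA carboxylase, by -0.93 (SE 0.31; adjusted p = 0.728), with -0.03 from its second probe. Pnpla3, a lipase under SREBP-1c control, differed by -1.29 (SE 0.53; adjusted p = 0.929). The regulators behaved otherwise: Srebf1 stood at 0.01 and Mlxipl, which encodes ChREBP, at 0.13.

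In the sterol branch of lipid synthesis the genotypes went different ways. Of 25 genes of cholesterol synthesis 11 were higher and 14 lower in the mean, with a median of -0.09, but 16 of 25 were higher in wild-type livers and 6 of 25 in livers labelled null, with medians of 0.16 and -0.30. In livers labelled null the high-fat array medians of -0.29, -0.34 and -0.20 were all below the low-fat ones of -0.04, 0.20 and 0.21, and in wild-type livers those of 0.55, -0.11 and 0.06 overlapped -0.06, 0.02 and -0.17. The difference between the genotypes was not tested for the list. Sc5d, which introduces a double bond into the sterol ring, stood at -0.61 (SE 0.21; adjusted p = 0.747), and Msmo1, the methylsterol oxidase, at 0.61 (SE 0.22; adjusted p = 0.785). Msmo1 differed by 1.16 in wild-type livers and by 0.05 in livers labelled null.

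Fatty acid oxidation lay on the other side. Of 30 measured genes of mitochondrial and peroxisomal oxidation 25 were higher and 5 lower on high fat, 10 were higher at p under 0.05 before adjustment against 2.52% of all genes, and 0 were lower. The median difference was 0.29, with 0.34 in wild-type livers and 0.25 in livers labelled null, and 0.27 to 0.34 without single arrays. Every high-fat list median was above every low-fat median of its genotype: 0.67, 0.43 and 0.35 against 0.04, -0.04 and 0.13 in wild-type livers, and 0.17, 0.08 and 0.24 against -0.22, -0.13 and -0.06 in livers labelled null. Decr2 is the member that passed. Next to it stood Acsl1, which activates long-chain fatty acids, at 0.91 (SE 0.24; adjusted p = 0.408), the isomerases Eci1 and Eci2 at 0.59 and 0.69, and the peroxisomal thiolase Acaa1a at 0.68, chosen after their values were seen.

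PPARalpha targets, a list that overlaps with oxidation, were mostly higher. Of 30 measured genes 26 were higher and 4 lower, with a median of 0.38 against 0.01 for all genes, and 8 higher and 3 lower at p under 0.05 before adjustment, against 2.52% and 2.32% of all genes. Slc22a5, the carnitine transporter, stood at 0.60 (SE 0.12; adjusted p = 0.251), with 0.07 from a second probe. Aldh3a2, a fatty aldehyde dehydrogenase, stood at 1.32 (SE 0.28; adjusted p = 0.270), Vnn1, a pantetheinase, at 1.33 (SE 0.38; adjusted p = 0.513) and Ppara itself at 0.50 (SE 0.22; adjusted p = 0.972). Pdk4, Fgf21 and Ppargc1a were the members lower at p under 0.05 before adjustment.

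Pdk4, the kinase that switches off pyruvate dehydrogenase, read -0.48, 0.70 and 0.22 on wild-type low fat and -1.37, -1.21 and -1.30 on high fat, and in livers labelled null -0.50, -0.30 and -1.83 on low fat and -1.13, -2.29 and -3.13 on high fat. Its difference was -1.37 (SE 0.36; adjusted p = 0.434), and the diets overlapped in the livers labelled null. Fgf21, a hormone the fasted liver secretes, differed by -1.15 (SE 0.34; adjusted p = 0.536), and its second probe by -1.06.

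Igfbp1, an insulin-repressed binding protein for IGF, differed by -2.68 (SE 0.62; adjusted p = 0.318). It read -0.25, -1.55 and -1.34 on wild-type low fat and -3.64, -2.23 and -3.29 on high fat, and in livers labelled null -0.09, -3.51 and -2.34 on low fat and -5.92, -3.65 and -6.44 on high fat. The diets were apart in both genotypes, but the spread within a group was wide. The insulin and IGF list as a whole, Igfbp1 included, had 11 of 22 genes higher and a median of 0.04, and Foxo1, a transcription factor that insulin keeps out of the nucleus, stood at 0.58 (SE 0.24; adjusted p = 0.937). Gpi1, a glycolytic isomerase, stood at -0.68 (SE 0.17; adjusted p = 0.382), in a list of 20 genes of glucose metabolism with a median of -0.06.

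Genes that respond fast to stress or growth signals were mostly lower, a count that rested on 1 array. Of 20 immediate early genes 17 were lower and 3 higher, with a median of -0.27, and 4 were lower at p under 0.05 before adjustment against 2.32% of all genes. In livers labelled null 7 of 20 were higher, in wild-type livers 2 of 20. Without wild-type low-fat array 1, 11 of 20 were lower and the median was -0.06. Gadd45g, a stress sensor, differed by -2.15 (SE 0.40; adjusted p = 0.178), with 0.07, 0.11 and -2.04 on wild-type low fat against -2.82, -3.02 and -2.90 on high fat, and with -0.19, -2.18 and -1.36 against -3.19, -3.05 and -3.54 in livers labelled null. The high-fat arrays were tightly grouped and the low-fat arrays spread over about 2 units. Nr4a1, an orphan nuclear receptor, differed by -0.94 (SE 0.20; adjusted p = 0.270).

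Clock genes were mostly higher on high fat. Of 18 measured clock genes 13 were higher and 5 lower, the median was 0.44, and 7 were higher and 2 lower at p under 0.05 before adjustment, against 2.52% and 2.32% of all genes. Among the 7 was Ciart, well above background on 0 of 6 low-fat and 5 of 6 high-fat arrays. Ciart met the detection filter only through a high-fat group, so its count is no independent evidence of a rise. Dbp read -0.62, 0.57 and 1.26 on wild-type low fat and 2.05, 2.12 and 2.22 on high fat, and in livers labelled null 0.08, 0.83 and -0.14 on low fat and 1.97, 1.28 and 2.44 on high fat. The diets did not overlap in either genotype, and its difference of 1.69 (SE 0.31) had an adjusted p of 0.178. Tef, a factor of the same family, stood at 1.43 (SE 0.31; adjusted p = 0.270), with 0.23 and 0.01 from its other probes. Per1 stood at 0.82 and Nr1d2 at 1.03, and Nr1d1 at 0.83, with 0.15 and -0.11 from other probes. Arntl, which encodes BMAL1, the activator that peaks in antiphase to these genes, stood at -0.66 (SE 0.34; adjusted p = 0.999) and was chosen after its values were seen. It was not among the 2 lower at p under 0.05 before adjustment, which were Nfil3 at -0.48 (SE 0.16) and Cry1 at -0.32 (SE 0.11). A shift of the clock was not tested. The sources used here give neither the hour of death nor the feeding state of the mice.

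**Figure D3:**
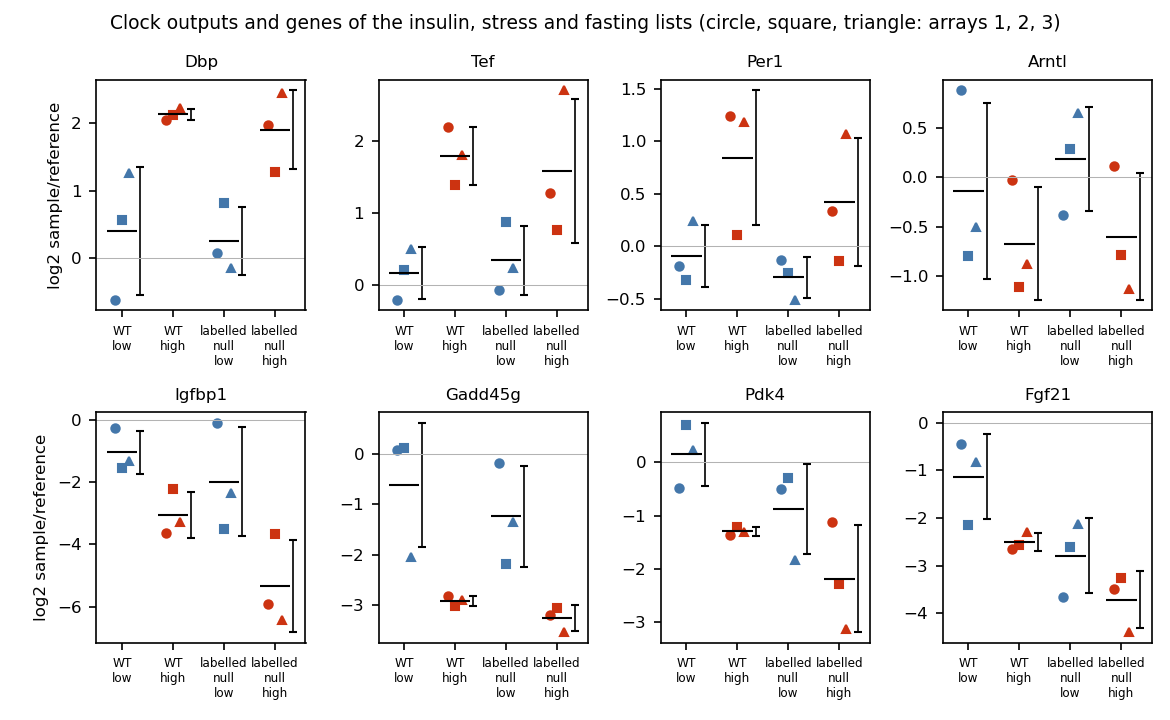
Log2 sample over reference on each array for 4 clock genes (top) and 4 genes of the insulin, stress and fasting lists (bottom); lines are means of 3 arrays and bars their SD. Dbp is higher on high fat (red) on every array of both genotypes, and Igfbp1 and Gadd45g are lower, whereas Arntl, Pdk4 and Fgf21 overlap between the diets in at least 1 genotype.

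Bile acid synthesis and transport had a median difference of 0.42, with 21 of 24 genes higher and 3 lower, and 7 higher at p under 0.05 before adjustment against 2.52% of all genes. Cyp7a1, the rate-limiting enzyme of bile acid synthesis, stood at 1.28 (SE 0.43; adjusted p = 0.725), with 0.42 from its second probe, and its arrays were apart in both genotypes. Slco1b2, an uptake transporter for bile acids and other anions, stood at 1.05 (SE 0.30; adjusted p = 0.511), and Cyp27a1, which starts the alternative pathway, at 0.55 (SE 0.18; adjusted p = 0.668). The list median was 0.63 in wild-type livers and 0.20 in livers labelled null, and 0.27 without low-fat array 1 of those labelled null. That difference between the genotypes was not tested.

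Genes expressed around the central vein had the highest list median, 0.55, with 15 of 19 higher and 9 higher at p under 0.05 before adjustment against 2.52% of all genes. The median was 0.92 in wild-type livers, with 16 of 19 higher, and 0.38 in livers labelled null, with 12 of 19 higher. That difference between the genotypes was not tested. Cyp2e1, the ethanol-oxidising P450, stood at 1.56 (SE 0.50; adjusted p = 0.665), Oat, ornithine aminotransferase, at 1.07 (SE 0.26; adjusted p = 0.363) and Aldh1a1, a retinal dehydrogenase, at 0.93 (SE 0.24; adjusted p = 0.407). The members did not move as 1: Glul stood at 0.33 (SE 0.65) and Lgr5 at 0.10 (SE 0.23). The 4 lower members were Gstm3 at -0.33, Axin2 at -0.08, Rhbg at -0.07 and Nkd1 at -0.06. On array 1 of the wild-type low-fat group Cyp2e1 read -0.83, against 0.98 and 1.19 on the others of that group and 3.29, 2.06 and 1.98 on wild-type high fat. Without that array the list median was 0.44 with 14 of 19 higher, and without wild-type low-fat array 2 it was 0.85. Cyp7a1, Slco1b2 and Cyp27a1, given above for bile acids, are also members of the pericentral list. Oat belongs to the amino acid list too, and Aldh1a1 to the retinoid list, so these lists are not separate observations. Periportal genes had a median of -0.10, with 7 of 18 higher and 11 lower, and 0.04 without wild-type low-fat array 1. At p under 0.05 before adjustment 3 were higher and 1 lower, against 2.52% and 2.32% of all genes. The 3 were Hsd17b6 at 1.19 (SE 0.30; adjusted p = 0.382 by limma), Arg1 at 0.67 and Pigr at 0.61. The 1 lower was Cdh1 at -0.59.

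Enzymes of drug metabolism that respond to CAR and PXR had a median of 0.51, with 13 of 20 higher, 7 lower, and 6 higher and 1 lower at p under 0.05 before adjustment, against 2.52% and 2.32% of all genes. Leaving out array 2 of wild-type low fat gave a median of 0.30, and array 1 of low fat labelled null 0.32. Cyp2a5 is the member that passed. Cyp2c54, an arachidonate epoxygenase, stood at 1.75 (SE 0.43; adjusted p = 0.371), the largest positive difference of all 14911 genes. Nr1i3, which encodes CAR, stood at 1.02 (SE 0.30; adjusted p = 0.539), and Por, the reductase that passes electrons to P450 enzymes, at 0.83 (SE 0.26; adjusted p = 0.601). For these 3 genes the arrays of the diets were apart in both genotypes. Sulfotransferases and glucuronosyltransferases, which conjugate hormones and drugs, had a median of 0.47 with 15 of 19 higher. At p under 0.05 before adjustment 8 were higher and 0 lower, against 2.52% and 2.32% of all genes. The smallest p belonged to Sult1b1 at 0.90, with 0.41 from its second probe, and to Ugt2a3 at 0.63.

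Amino acid breakdown and the urea cycle had a median of 0.32, with 22 of 28 genes higher and 6 higher at p under 0.05 before adjustment against 2.52% of all genes, none of which passed. Tdo2 and Oat, given above, had the smallest p, and Arg1, the arginase that releases urea, stood at 0.67 (SE 0.24; adjusted p = 0.785). Retinoid genes had a median of 0.13, and Rdh11, a retinal reductase, stood at -0.89 (SE 0.25; adjusted p = 0.487). The genes of oxidative phosphorylation had a median of 0.03 over 32 genes.

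The acute phase list was lower, with 21 of 28 genes below 0, a median of -0.43 and 3 lower at p under 0.05 before adjustment against 2.32% of all genes. Without wild-type low-fat array 1 the median was -0.21 with 19 of 28 lower. Orm2 and Orm1, the orosomucoids secreted in inflammation, stood at -1.06 (SE 0.35; adjusted p = 0.727) and -0.70 (SE 0.26; adjusted p = 0.792). In the MHC list 17 of 19 genes were lower in the mean, although 11 of 19 were higher in livers labelled null and 3 of 19 in wild-type livers, with a median of -0.10, which ran from -0.18 to -0.02 over the fits without single arrays, and H2-Q1 stood at -1.41 (SE 0.42; adjusted p = 0.560). Interferon-stimulated genes had a median of 0.01.

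Genes of fat storage did not go one way. The list of lipid droplet proteins and PPARgamma targets had 8 of 21 genes higher, 13 lower and a median of -0.26, which leaving out single arrays moved to between -0.35 and -0.05 (the latter without wild-type low-fat array 3). In wild-type livers 7 of 21 were higher and in livers labelled null 11 of 21, with medians of -0.11 and 0.03. Both lie above -0.26, and 10 of the 21 went opposite ways in the genotypes. In the mean 1 was lower at p under 0.05 before adjustment, against 2.32% of all genes. Plin3, a droplet coat protein, stood at -0.61 (SE 0.16; adjusted p = 0.408) and Fabp4, an adipocyte and macrophage fatty acid carrier, at -1.07 (SE 0.59; adjusted p = 0.999). Gpam, which starts glycerolipid synthesis, stood at -0.90 (SE 0.36; adjusted p = 0.881). Apoa4, an apolipoprotein, stood at -1.56 (SE 0.57; adjusted p = 0.792), and 0.0792 with scan as a block. Car3, a carbonic anhydrase of fat, muscle and liver, stood at 0.98 (SE 0.26; adjusted p = 0.458) with its arrays apart in both genotypes, the sole one of 7 measured adipocyte markers with a positive difference.

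**Figure D4:**
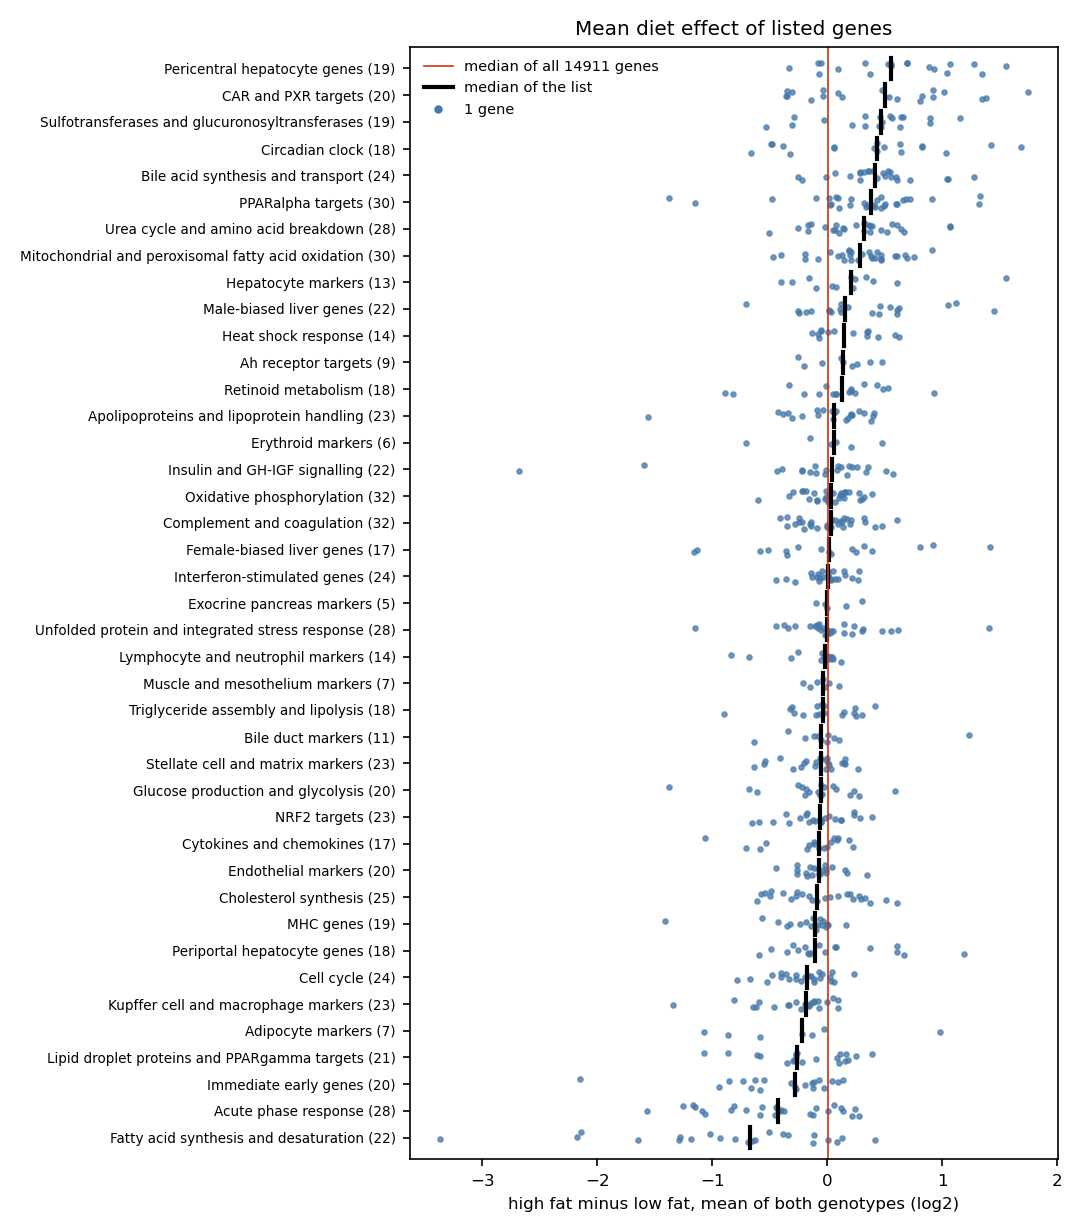
High-fat minus low-fat difference (log2, mean of both genotypes) of every measured gene in the 41 lists, 1 point per gene, with the list median (black) and the median of all 14911 genes (red). Fatty acid synthesis lies lowest at -0.67, and pericentral, CAR and PXR, conjugation, clock, bile acid, PPARalpha, amino acid and oxidation lists lie between 0.29 and 0.55. Some genes belong to several of these lists, so the medians are not independent.

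**Figure D5:**
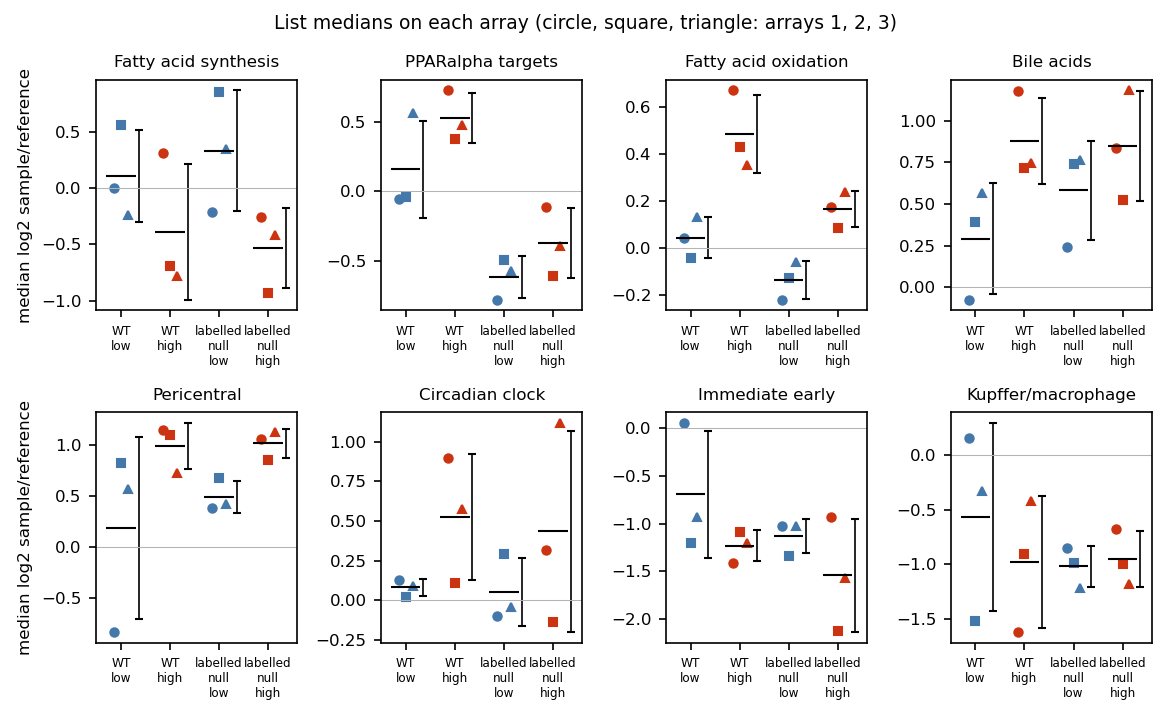
Median log2 sample over reference of 8 lists on each array; lines are means of 3 arrays and bars their SD. Fatty acid oxidation separates the diets in both genotypes, while in the pericentral, immediate early and macrophage panels wild-type low-fat array 1 (circle) is the lowest or highest of its group at -0.83, 0.05 and 0.16.

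The remaining lists had medians near that of all genes or depended on single arrays. Apolipoproteins had a median of 0.06 over 23 genes, the unfolded protein and integrated stress response -0.003 over 28, complement and coagulation 0.03 over 32 and the male-biased and female-biased genes 0.15 and 0.02. Targets of the Ah receptor had a median of 0.14 over 9 genes, none at p under 0.05 before adjustment. Targets of NRF2 had a median of -0.06 over 23 genes and genes of glyceride assembly and lipolysis -0.04 over 18. For the cell cycle 19 of 24 genes were lower in the mean, although 15 of 24 were higher in livers labelled null and 1 of 24 in wild-type livers, with a median of -0.17, and 13 of 24 with -0.01 without wild-type low-fat array 1. Stellate and matrix markers had a median of -0.05, and 0.19 without that array. Endothelial markers were at -0.07 over 20 genes, lymphocyte and neutrophil markers at -0.02 over 14 and bile duct markers at -0.05 over 11. Single members stood apart from these medians. Of the bile duct list Krt23 stood at 1.24 (SE 0.26; adjusted p = 0.251 by limma) and Anxa5 at -0.63 (SE 0.27; adjusted p = 0.959). Of the lymphocyte list Ighm stood at -0.68 (SE 0.22; adjusted p = 0.666). The heat shock response had a median of 0.15 over 14 genes and cytokines and chemokines -0.07 over 17. Adipocyte, erythroid, exocrine pancreas and muscle or mesothelium markers, with 5 to 7 measured genes each, had medians of -0.21, 0.06, -0.002 and -0.03.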

How the data were processed

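Liver RNA of 12 samples was measured on 2-colour Agilent whole-genome arrays. The deposited scanner files hold spot intensity and local background, written by Agilent Feature Extraction 9.1.3.1 per the file headers, and the submitters' processing notes name limma, with no role given. Mean intensities were background-corrected (normexp, offset 50) and loess-normalised within each array with limma 3.58.1 in R 4.3.3. Control spots and 120 non-uniform spots were left out, and saturated spots were kept. Of 41174 probes 21490 were well above background in all 3 arrays of a group, and the brightest probe stood for each of 14911 genes (31 with a missing value). Array precision is limited by the number of arrays. Probes were named through the RefSeq table by accession (24844) or symbol (6045 current, 1810 older), and 8475 kept the name in the files.

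limma fitted the 4 group means over 12 arrays (8 residual degrees of freedom), with and without scan as a block, with Benjamini-Hochberg adjustment over all genes. The rule for naming took the genes past the threshold, filled by smallest p to 8 in each direction, then up to 4 members past the threshold or the 2 with the smallest p of each described list and of the interaction, and Cyp1b1. Not every list member that it picked is printed above. Probe A_52_P517668, which that rule passes over as unnamed, Srebf1, Mlxipl, Alb, Ttr, Apoa1, Clec4f, Csf1r and those so marked or given beside a list leader were chosen after their values were seen. The members, the 41 lists and the tests were chosen with earlier results of these data known. The fit was run on simulated data with independent noise on each array. Those data lack the correlation within a scan seen here, so they do not test the p-values under it.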

Additional observations from a re-analysis of the deposited data

How the results depend on the processing

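Of 14911 genes 5 passed for the mean diet effect with or without scan as a block. The count moved by more than 1.5 times under these alternatives for the fit without scan: 15 genes with scan as a random block, 0 with slide as a block (941 at limma p under 0.05 before adjustment), 15 without background correction, 31 from Agilent's processed signals, 0 after median centring (37 before adjustment), 71 from the sample channel alone, 3 with a variance trend and robust prior, 16 with array quality weights, 1 with genotype left out, 8 at a threshold of 0.10 and 27 within scan 1. With scan as a block it was 203 without background correction, 76 from processed signals, 0 after median centring (421 before adjustment), 171 from the sample channel alone and 70 at 0.10. Aquantile scaling leaves the log ratios as they are. Leaving out 1 array at a time gave 1 to 11 genes without scan and 0 to 43 with it, the largest without wild-type low-fat array 3 and array 1, respectively. By genotype, these gave 0 to 1 in wild-type livers, 0 to 1 in livers labelled null and 0 for the interaction, and the scan block gave 0 in wild-type livers. The causes were not tested. Scd1, Cd9, probe A_52_P517668, Decr2 and Cyp2a5 kept their sign under all 29 alternatives and passed in 25, 22, 23, 10 and 11 of the 28 with a test. Of 71 other genes, Cyp1b1 alone reversed, at 0.36 within scan 2, where no test is possible. Scan 3 holds wild-type arrays alone, so it gives no mean of both genotypes.

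The replicate numbers in the titles go with slide and scan in wild-type livers, where same-numbered arrays shared a slide and their deviations correlated at 0.33, 0.34 and 0.46. They do not in livers labelled null, with -0.31, -0.57 and 0.09, so the numbers do not pair the samples of the whole design. With the number as a replicate block 3 genes passed. Alternatives with the slide and with scan plus a left-out array were chosen after seeing the data. Signal over background limits dim probes. Probes that were not well above background in all 3 arrays of a group were tested only in the alternative without that filter.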
